A study of Mus musculus with 10 samples.

Results

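The response to hypoxia that remained in mouse hepatocytes labelled HIF-1alpha null was read from 5 of the 10 arrays of the series, chosen by sample title: 3 arrays of hypoxic HIF-1alpha null cells (numbers 1 to 3) and 2 arrays of normoxic cells treated with adeno (numbers 1 and 2). Every probe set that is not a control was kept, 12488 less 66 controls, and 7453 were bright enough to test. The other 5 arrays, 2 of normoxic untreated cells and 3 of hypoxic adeno-treated cells, are used here as reference. The latter are called wild type below, while their titles give adeno treatment and no genotype. All samples are total RNA of hepatocytes, 1 array each. No other strain, age or agent is given. What the adeno vector carried, how HIF-1alpha was removed, whether adeno was also given to null cells, which genotype the normoxic cells had, how low oxygen was and for how long are unstated. Whether arrays come from separate cultures is unstated too. The series has no normoxic null group, so hypoxia, genotype and any difference in adeno treatment cannot be told apart in this comparison. If the arrays of a group share a culture, p-values measure the spread between arrays alone.

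Cells sense oxygen through prolyl hydroxylases (Egln genes), which mark HIF-1alpha for destruction when oxygen is present. In hypoxia HIF-1alpha escapes, pairs with ARNT and binds a short core element in target genes for glucose uptake, glycolysis and blood vessel growth. HIF-2alpha, the product of Epas1, is a related oxygen-controlled subunit that binds the same core. Hypoxia also reaches hepatocytes by other routes, among them the integrated stress response through ATF4, immediate early kinase signalling and growth arrest genes.

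The targeted gene was read first. Hif1a is measured by a pair of probe sets that read alike. The first read 746 and 628 on the adeno-treated arrays, 962, 703 and 711 on the hypoxic wild type arrays and 1647, 1010.5 and 850.0 on the null arrays. The Hif1a signal was thus not lower on the arrays labelled null: all 3 lay above both adeno-treated arrays. With the replicate number as a block, explained below, both probe sets passed (log2 change 0.85 and 1.03, limma adjusted p = 0.015 and 0.00343). Which part of the transcript was removed, and where these probes lie on it, is not given here, so the signal does not check the labels. "Null" below means labelled null.

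Array quality was similar, with exceptions. Correlations between any pair of the 5 arrays were 0.943 to 0.972 on the log2 scale, and array medians over the series were 60 to 70.9 intensity units. The 18S control probe sets differed, with mean log2 values of 8.14, 8.66 and 12.2 on the null arrays, 7.08 and 10.2 on the adeno-treated arrays and 12.3 on wild type array 3. The log2 ratio of 3′ to 5′ actin control probe sets was 0.65 and 1.03 on the adeno-treated arrays and 0.45, 0.71 and 0.43 on the null arrays. That of Gapdh was -0.19 on both adeno-treated arrays and -0.10, -0.32 and -0.24 on the null arrays. The part of these ratios in the results was not tested. Defining hepatocyte markers were bright: Alb read 10659, 10883 and 11183 on the null arrays and 10967 and 13761 on the adeno-treated arrays. Markers of stellate cells and fibroblasts summed to 16426, 11017 and 5305 on null arrays 1, 2 and 3 and to 10169 and 10841 on the adeno-treated arrays, over 13 genes, none at 0 on every array. Biliary markers (5 genes) summed to 10506, 8659 and 6232 against 7442 and 6565, and hepatocyte markers (9 genes) to 25855, 28162 and 34191 against 32795 and 41326. Null array 3 thus had the least stellate and biliary signal and null array 1 the most. The hypoxic wild type arrays had the same layout by number, with stellate sums of 17598, 12793 and 5758 and biliary sums of 10614, 8412 and 6004. On bulk arrays, fewer cells of a type and less RNA per cell cannot be told apart.

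A small set of genes rose strongly in hypoxic null cells. Values are the deposited scaled intensities, and a log2 change is the limma estimate (null minus adeno-treated) on log2(intensity + 4.7), which understates the change of dim genes. Array values are given in the order of their numbers, and in "X against Y" the adeno-treated arrays come first. Of 7453 probe sets, 26 were higher (0.349%) and 6 lower (0.0805%) at a Benjamini-Hochberg adjusted p under 0.05, and 386 were higher and 340 lower at an unadjusted p under 0.05. The 26 hold 23 named genes, and the 6 hold 6. On all 32 probe sets the 3 null arrays did not overlap the 2 adeno-treated arrays. That separation alone was common: 13.8% of probe sets lay wholly higher and 12.1% wholly lower.

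The plot of the called values shows each array.

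**Figure D1:**
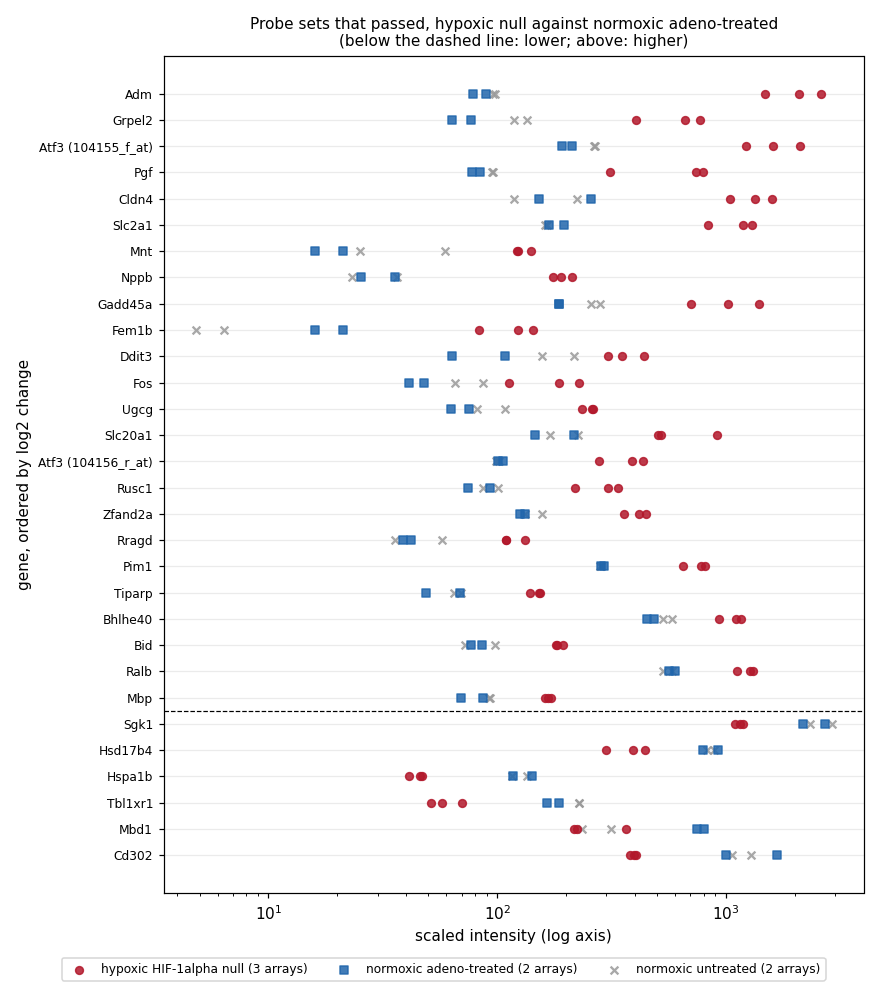
Scaled intensity (log axis) of the 30 called probe sets with 1 gene symbol, 1 row each, ordered by log2 change; red points are the 3 hypoxic null arrays, blue squares the 2 normoxic adeno-treated arrays and grey crosses the 2 normoxic untreated arrays. Above the dashed line every red point lies right of every blue square, and below it every red point lies left; the widest gap is that of Adm.

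Array number carried through the hypoxic groups, and less clearly between normoxic and hypoxic arrays. Arrays of the same number deviated together from their group means in all 13 same-number pairs (r = 0.106 to 0.678). These 13 pairs are not independent, since deviations in a group of 2 arrays mirror each other, and no label states a pairing. Between null and adeno-treated arrays of the same number r was 0.274 and 0.131, and for different numbers -0.274 to 0.186. Adeno-treated array 2 went more with null array 3 (0.186) than with null array 2 (0.131), so its number did not pick out its partner. Between null and wild type arrays r was 0.542 to 0.678 for the same number and -0.518 to -0.146 for different numbers. On the ground of the same-number pairs the number was also fitted as a block. With it, 220 probe sets were higher (2.95%) and 211 lower (2.83%), and these hold all 32 of the fit without it. In every one of these calls the null array was on the called side of the adeno-treated array of its own number, for numbers 1 and 2. The block fit compares arrays within a number, so this follows largely from how the calls were made and is no separate evidence for them. There is no normoxic array of number 3, so null array 3 enters the block fit only through its wild type partner; it lay beyond both adeno-treated arrays for 162 of the 220 and 132 of the 211.

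How many probe sets passed depended on single arrays. Without adeno-treated array 1 there were 5 higher and 1 lower, and without adeno-treated array 2 there were 3 and 0. Leaving out null array 1, 2 or 3 gave 20 and 3, 4 and 1, and 11 and 0. Adm, Slc2a1 and 1 probe set without a gene symbol passed in all 5 of these fits, and none of the 6 lower probe sets did. In the block fits that leave out 1 array, 16 of the 26 and 3 of the 6 (Cd302, Mbd1 and Hsd17b4) passed all 5 times. Against all 4 normoxic arrays 44 probe sets were higher (0.59%) and 17 lower (0.228%), and these hold 25 of the 26 and 5 of the 6. They also hold 43 of the 220 and 17 of the 211 block calls. The scatter of all probe sets sets both fits side by side.

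**Figure D2:**
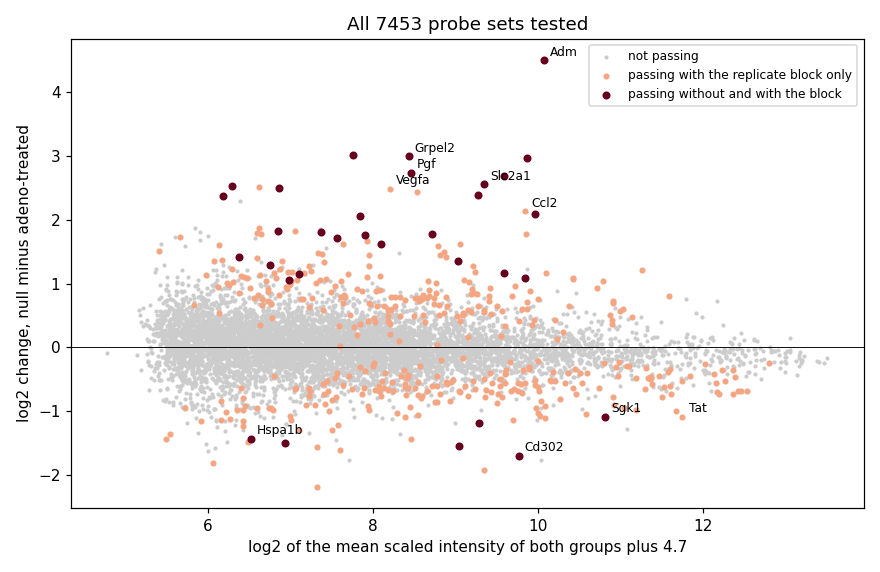
Log2 change (null minus adeno-treated, without the block) against log2 of the mean scaled intensity of both groups plus 4.7, 1 point per probe set; dark points passed without and with the replicate block, orange points with the block only, grey points did not pass. The 26 dark points above 0 reach further from 0 (up to 4.50 for Adm) than the 6 below (down to -1.70 for Cd302).

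Adm, a known hypoxia-inducible gene, had the largest rise, and other such genes were among the 23 that rose. Adm, which encodes the vasodilator peptide adrenomedullin, read 78.7 and 89.7 on the adeno-treated arrays and 1482, 2089.7 and 2602 on the null arrays. By the limma estimate Adm was 22.6-fold higher (log2 change 4.50 ± 0.28 SE, n = 3 and 2 arrays, limma adjusted p = 0.00017). The untreated normoxic arrays read 97.5 and 96.3, slightly above the adeno-treated pair and far under the null arrays. Slc2a1, the glucose transporter GLUT1, rose from 169 and 195 to 837, 1297 and 1194 (log2 change 2.56 ± 0.20 SE, limma adjusted p = 0.000499). The lowest null array of Slc2a1 was far above both adeno-treated arrays. Pgf, the angiogenic placental growth factor, rose from 84.5 and 77.8 to 738, 798 and 310.0 (log2 change 2.74, limma adjusted p = 0.0306). Null array 3 of Pgf was well under the other null arrays but still above both controls.

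Bhlhe40 and Pim1 rose less. Bhlhe40 is a circadian and hypoxia-responsive repressor. It read 485 and 453 on the adeno-treated arrays and 931, 1106 and 1163 on the null arrays (log2 change 1.17, limma adjusted p = 0.0393). Pim1, a survival kinase, read 285 and 293 against 653, 813 and 781 (log2 change 1.35, limma adjusted p = 0.0157); a second, dimmer Pim1 probe set gave a similar change of 1.27 that did not pass (limma adjusted p = 0.343). Both genes separated cleanly between the groups on these probe sets.

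Vegfa, the main angiogenic growth factor, read 83 and 69.2 on the adeno-treated arrays and 225, 501 and 790.2 on null arrays 1, 2 and 3. Its log2 change of 2.49 was among the larger ones, but the spread between null arrays was wide and it did not pass without the block (limma adjusted p = 0.122); with the block it did (log2 change 2.09, limma adjusted p = 0.00514). Ndrg1, a stress-responsive gene, also passed with the block alone on its first probe set (1067 and 1212 against 2178, 2977 and 2002, limma adjusted p = 0.0599 without and 0.00165 with it), and on its second (0.278 and 0.0175). Ero1a, the oxidase that forms disulfide bonds in the endoplasmic reticulum, has 2 probe sets. One gave log2 1.28 (limma adjusted p = 0.0597, and 0.0155 with the block), and the other 0.64 and did not pass either way (0.64 and 0.186). Ccng2, an atypical cyclin of growth arrest, passed with the block (log2 change 0.94, limma adjusted p = 0.0232). The untreated arrays of Ccng2 read 258 and 224 and overlapped its null arrays (252, 212 and 311); against all 4 normoxic arrays it did not pass (limma adjusted p = 0.43).

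Of 28 tested genes of a list of HIF targets outside glycolysis, 4 were higher (Adm, Pgf, Pim1 and Bhlhe40) and 0 lower without the block, against 23 higher and 6 lower among all 5688 genes tested. With the block 10 were higher, adding Vegfa, Ndrg1, Ero1a, Ccng2, Hmox1 and Angptl4, against 191 higher among all genes. The list median was 0.11 (0.40 with the block), beside 0.00 and 0.03 over all genes, and it changed sign without adeno-treated array 1. Of the 10, between 5 (without adeno-treated array 2) and 9 passed when 1 array was left out of the block fit. Angptl4, which encodes a lipase inhibitor, is uncertain: its 3 probe sets gave 1.79, -0.35 and -1.44. With the block the first passed as higher and the last as lower.

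The promoters of the leading genes were searched for the core that HIF subunits bind. The windows are 250 bases before to 50 after the RefSeq start (GRCm38.p6), and the core was ACGTG or GCGTG on either strand, so that CACGT and CACGC also count. The 250 upstream bases of Adm (chr7:110627407-110627656, plus strand) and Slc2a1 (chr4:119108495-119108744, plus strand) are shown because these genes passed whichever array was left out, and those of Gadd45a (chr6:67037408-67037657, minus strand) as a riser without the core. Capitals mark the core, in the gene's own 5′ to 3′ direction.
Adm: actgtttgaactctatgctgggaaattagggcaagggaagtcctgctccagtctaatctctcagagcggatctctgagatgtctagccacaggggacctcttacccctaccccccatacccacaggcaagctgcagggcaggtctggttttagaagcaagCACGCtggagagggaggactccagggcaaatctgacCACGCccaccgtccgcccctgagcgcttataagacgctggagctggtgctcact
Slc2a1: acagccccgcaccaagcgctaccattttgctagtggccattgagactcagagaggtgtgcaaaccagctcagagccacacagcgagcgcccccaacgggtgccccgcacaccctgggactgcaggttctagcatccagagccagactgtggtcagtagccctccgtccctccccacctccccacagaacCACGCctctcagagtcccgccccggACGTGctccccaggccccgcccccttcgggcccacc
Gadd45a: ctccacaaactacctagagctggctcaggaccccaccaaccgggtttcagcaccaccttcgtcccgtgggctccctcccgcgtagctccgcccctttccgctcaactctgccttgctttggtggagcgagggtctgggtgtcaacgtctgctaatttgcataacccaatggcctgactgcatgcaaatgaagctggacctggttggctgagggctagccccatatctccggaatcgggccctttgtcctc
Adm and Slc2a1 each hold 2 cores and Gadd45a holds 0. Of the 23 genes that rose, 20 have a window and 15 of these (75.0%) hold the core, as do 1 of 4 (25%) with a window among the 6 that fell. The core is frequent: 68.1% of all tested genes with a window hold it, and 46.7% of all genes in the reference table. With the block, 112 of 147 risers (76.2%) and 89 of 154 fallers (57.8%) hold it. The AP-1 site TGACTCA, read on both strands (TGAGTCA), was in the windows of Cldn4 and Ddit3 alone among the 20 (10%), beside 5.06% of tested genes. These matches describe the windows and do not show binding.

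Of 22 tested genes of glucose uptake and glycolysis, Slc2a1 was higher without the block, against 23 of all 5688 genes, and with it Slc2a1 and Hk2 were higher and Pgam1 lower, against 191 and 184. Hk2, the hexokinase that traps glucose in the cell and is induced by hypoxia, read 81.3 and 49.0 on the adeno-treated arrays and 179.8, 139 and 130.3 on the null arrays, and passed only with the block (log2 change 1.21, limma adjusted p = 0.00834; 0.136 without). Pgam1, phosphoglycerate mutase, was lower with the block (2626 and 3484 against 1544, 2109 and 2211, log2 change -0.70, limma adjusted p = 0.0102). Ldha, lactate dehydrogenase, read 5941 and 6529 against 4635, 5656 and 5433, a log2 change of -0.25 that did not pass. The log2 change was -0.29 for Pgk1 (phosphoglycerate kinase), -0.15 and -0.24 for the Aldoa aldolase probe sets and 0.53 for Hk1, and none of these passed with or without the block. The median over the 22 genes was 0.02 and turned sign in 6 of the 23 alternative settings. Glycogen genes (6 tested) had a median of -0.34, and none passed in either fit.

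The hypoxia-related genes Egln1, Pdk1 and Bnip3 showed no rise that passed. Egln1, the main HIF prolyl hydroxylase and itself a HIF target, read 308 and 381 on the adeno-treated arrays and 248, 281 and 409 on the null arrays (log2 change -0.16, limma adjusted p = 0.891). Pdk1, the kinase that shuts pyruvate dehydrogenase, read 219 and 255 against 122, 149.5 and 164 (log2 change -0.70, limma adjusted p = 0.378). Bnip3, a mitophagy receptor induced by hypoxia, read 325 and 587 against 226, 677 and 636 (log2 change 0.08). Egln1 and Bnip3 overlapped between the groups, whereas all Pdk1 null arrays lay below both adeno-treated arrays. Epas1 was dim, at 67.1 and 85.7 against 47.5, 101 and 79.4, and Arnt had a log2 change of 0.33; neither passed.

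Several stress and growth arrest genes rose. Atf3, a stress-induced transcription factor, rose from 213 and 193 to 1231, 1608 and 2106 on its brighter probe set (log2 change 2.96 ± 0.31 SE, limma adjusted p = 0.00472) and by 1.76 on the second (limma adjusted p = 0.017). Ddit3 encodes CHOP, the pro-apoptotic factor downstream of ATF4. It rose from 108 and 63.2 to 305, 351 and 439.7 (log2 change 2.06, limma adjusted p = 0.0147). Its untreated normoxic arrays were higher than the adeno-treated ones, at 217 and 156, and against all 4 normoxic arrays it did not pass (limma adjusted p = 0.0696). Gadd45a, a growth arrest and DNA damage gene, rose from 187 and 187 to 701, 1019 and 1399 (log2 change 2.39 ± 0.31 SE, limma adjusted p = 0.0147).

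Atf4 encodes the transcription factor that drives the integrated stress response. It read 1061 and 1226 on the adeno-treated arrays and 1862, 2439 and 2310.1 on the null arrays without overlap, and passed with the block alone (log2 change 0.93, limma adjusted p = 0.00304; 0.11 without). Atf5, a related factor, was lower with the block (1318 and 1462 against 689.5, 489 and 1162, limma adjusted p = 0.0117). Hspa5, the endoplasmic reticulum chaperone BiP, had a log2 change of 0.15 that did not pass (limma adjusted p = 0.843). Of 22 genes tested in the list for unfolded proteins and integrated stress, 2 were higher (Atf3 and Ddit3) and 0 lower, and with the block 3 and 1. Among all 5688 genes tested, 23 were higher and 6 lower without the block, and 191 and 184 with it. Of 13 genes of p53 targets and growth arrest, Gadd45a was higher without the block and Ccng2, Gadd45b and Mdm2 were added with it; Gadd45b and Mdm2 read highest on null array 1. Cdkn1a, the p53 target p21, has 2 probe sets that disagree in size (0.02 and 0.89), and neither passed in either fit.

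Immediate early genes, which respond to kinase signalling within minutes, lay mostly above the controls. Fos, a subunit of AP-1, rose from 48.0 and 41.1 to 112, 187 and 228 (log2 change 1.82, limma adjusted p = 0.042). Of 21 tested genes, Atf3 and Fos passed without the block, and Dusp1, Ier3, Junb, Klf10, Klf4 and Myc were added with it. In either fit 0 were lower, and of all 5688 genes 23 were higher without the block and 191 with it. On the log2 scale 19 of the 21 were above 0, with a median of 0.61 (0.61, 0.76 and 0.50 by null array), and 13 lay wholly higher on the null arrays, against 793 of all 5688 genes. Of the 8 called with the block, 2 to 6 passed when 1 array was left out, 2 without adeno-treated array 2 or null array 2. The list median was above 0 in every alternative setting run. Klf4, a growth-restraining zinc finger factor, read 117 and 65.8 against 352, 361 and 175 (log2 change 2.0 with the block, limma adjusted p = 0.00137). Jun had a log2 change of -0.51 and Egr1 of 0.11, and neither passed.

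Mnt, a repressor that competes with MYC for MAX, rose from 21.2 and 15.9 to 123, 141 and 122 (log2 change 2.53 ± 0.33 SE, limma adjusted p = 0.0147). Its normoxic signal was dim, and the untreated arrays read 25.2 and 59.1, still under the null arrays. Myc itself read 144 and 153 against 253, 355 and 378, and passed with the block (log2 change 0.97, limma adjusted p = 0.0144). Of 12 clock genes Bhlhe40 passed without the block, and Nr1d1, which encodes the clock repressor REV-ERB alpha, and Csnk1e, a clock kinase, with it. Of all 5688 genes, 23 were higher without the block and 191 with it. Nr1d1 read 110.1 and 139.8 against 248, 290.0 and 306 (limma adjusted p = 0.0161 with the block). Per1 had a log2 change of -0.48 that did not pass.

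Other rises came from varied functions. Grpel2, a nucleotide exchange factor of the mitochondrial HSP70 chaperone, had the second largest rise among named genes, from 63.7 and 76.8 to 406, 660.2 and 769 (log2 change 3.0 ± 0.35 SE, limma adjusted p = 0.00784). The untreated arrays read 135 and 119, between the groups. Cldn4, a tight junction claudin found in biliary epithelium, rose from 258 and 152 to 1339.9, 1587 and 1041 (log2 change 2.69, limma adjusted p = 0.02). The summed biliary markers, of which Cldn4 is one, were highest on null array 1 and lowest on null array 3, while Cldn4 was above both controls on all 3; the part of these cells in the result was not tested. Nppb, the natriuretic peptide BNP, rose from 25.4 and 35.6 to 190.4, 213 and 175 (log2 change 2.50, limma adjusted p = 0.0306).

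Fem1b, a substrate receptor of a ubiquitin ligase, rose from 15.9 and 21.1 to 83.5, 124 and 144 (log2 change 2.37, limma adjusted p = 0.0169). The untreated arrays were near the bottom of the scale at 6.40 and 4.80, so the normoxic level of Fem1b is poorly measured. Bid, a death agonist of the BCL2 family, rose from 76.5 and 85.7 to 182, 194 and 180.2 (log2 change 1.15, limma adjusted p = 0.0393). The remaining risers were Ugcg (glucosylceramide synthase), Slc20a1 (a phosphate transporter), Rusc1, Zfand2a (a stress-induced partner of the proteasome), Rragd (a GTPase of amino acid sensing), Tiparp (an ADP-ribosyltransferase), Ralb (a small GTPase) and Mbp (myelin basic protein). Their log2 changes ran from 1.06 (Mbp) to 1.81 (Ugcg), with limma adjusted p from 0.00782 to 0.0447. The 2 risers without a symbol had log2 changes of 3.02 and 2.09.

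Without the block, 6 probe sets fell, by less than the largest rises; with it, falls were about as many as rises (211 and 220). Cd302, a C-type lectin receptor, fell from 998 and 1674 to 396, 406 and 382 (log2 change -1.70 ± 0.24 SE, limma adjusted p = 0.0192). The 3 null arrays of Cd302 agree closely and the adeno-treated pair does not, yet both controls are more than 2 times higher. Sgk1, a kinase induced by serum and glucocorticoid, fell from 2181 and 2716 to 1191, 1091 and 1149 (log2 change -1.09, limma adjusted p = 0.0283). Hsd17b4, the peroxisomal bifunctional enzyme of fatty acid oxidation, fell from 794 and 923 to 391, 299.8 and 445 (log2 change -1.19, limma adjusted p = 0.0447).

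Hspa1b, the inducible HSP70 chaperone, fell from 142 and 117 to 46.1, 46.7 and 41.3 (log2 change -1.43, limma adjusted p = 0.0373); Hspa1b has a near-identical neighbour, Hspa1a, whose RNA the probes may share. Of 16 heat shock chaperones, Grpel2 rose and Hspa1b fell, and with the block Hspa8 and Hsph1 were lower too (-0.50 and -0.70 on the log2 scale, limma adjusted p = 0.0438 and 0.0424). Of all 5688 genes, 23 were higher and 6 lower without the block, and 191 and 184 with it. Tbl1xr1, a subunit of a nuclear corepressor complex, fell from 165 and 186 to 70.1, 51.3 and 57.4 (log2 change -1.49, limma adjusted p = 0.0169). Mbd1, which binds methylated CpG, fell from 800.1 and 751 to 224, 367 and 218 (log2 change -1.55, limma adjusted p = 0.0393). For Mbd1 the untreated arrays read 234 and 314 and the hypoxic wild type arrays 250.2, 334 and 296, like the null arrays, so the adeno-treated pair stood apart; against all 4 normoxic arrays it did not pass (limma adjusted p = 0.426).

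Genes of liver metabolism were among those lower with the block. None of the genes in this paragraph and the next passed without it. Of 7 gluconeogenic genes 4 were lower with the block and 0 higher, against 184 lower and 191 higher among all 5688 genes. G6pc, the catalytic subunit of glucose 6-phosphatase that frees glucose from the liver, read 681 and 2309 on adeno-treated arrays 1 and 2 and 272, 695 and 1020.2 on null arrays 1, 2 and 3 (log2 change -1.61, limma adjusted p = 0.00145). Its null arrays overlap the controls. Each of null 1 and null 2 is under the control of its own number, as in every lower block call, so this is no separate evidence. Pck1, the PEPCK enzyme at the entry to gluconeogenesis, read 257 and 736 against 89.2, 384 and 649 (log2 change -1.16, limma adjusted p = 0.0264) and shows the same layout. Fbp1 and Slc37a4, the fructose bisphosphatase and the glucose 6-phosphate transporter, passed too.

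Of 18 genes of the urea cycle and amino acid breakdown 8 were lower with the block (Ahcy, Arg1, Cps1, Fah, Gldc, Hgd, Tat and Tdo2). Tat, tyrosine aminotransferase, read 3928 and 5051 against 1244, 1790.4 and 4124 (log2 change -1.56, limma adjusted p = 0.000501); null array 3 lay between the adeno-treated arrays and the other null arrays lay below them. Arg1, the arginase that releases urea, read 6260.3 and 8331 against 3694, 4118 and 5919 (log2 change -0.86, limma adjusted p = 0.00343), and Cps1, the entry enzyme of the cycle, 4430.5 and 5565 against 2509, 3562 and 5744 (limma adjusted p = 0.00859). Of 30 conjugation and aldehyde enzymes 9 were lower, among them glutathione transferases (Gsta2, Gsta3, Gstm2, Gstt2 and Gstz1), Adh1 and Aldh2. Lower with the block were also 3 of 22 cytochrome P450 genes, 4 of 32 plasma protein genes (Apoa2, F9, Rbp4 and Ttr) and 2 of 17 of fatty acid oxidation, against 184 of all 5688 genes. The respiratory chain, with 2 of 39 lower, was near that share over all genes. Of 18 liver-enriched transcription factors Cebpa, Nr1h3, Nr1h4 and Nr5a2 were lower. No gene of these 8 lists was higher in either fit. Of the 36 genes of these lists that were lower with the block, 7 passed without adeno-treated array 1, 4 without adeno-treated array 2, and 23, 11 and 22 without null array 1, 2 and 3. Cebpa, which holds hepatocytes differentiated, read 1351 and 1278 against 789, 699 and 567 (log2 change -0.79, limma adjusted p = 0.00912), with no overlap.

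These lists differed between the null arrays in the way the hepatocyte markers did. The likeness is partly built in, since the markers Tat, Tdo2 and Cps1 are also in the urea cycle list and Ttr and F9 in the plasma protein list. The median difference from the adeno-treated mean on null arrays 1, 2 and 3 was -1.11, -0.27 and -0.02 for gluconeogenesis, -0.62, -0.25 and 0.18 for the urea cycle list, -0.42, -0.28 and -0.10 for conjugation and -0.80, -0.47 and -0.20 for the 9 hepatocyte markers. Null array 1 was lowest and null array 3 nearest to the controls in each. Within a number, the median difference of null from adeno-treated arrays was -0.68 and -0.71 for numbers 1 and 2 in gluconeogenesis, -0.51 and -0.40 in the urea cycle list and -0.53 and -0.64 in the hepatocyte markers, 5 of which were themselves lower with the block. The stellate and fibroblast markers went the other way by array (0.52, 0.04 and -1.09). The part of cell makeup in the lower liver genes was not tested.

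Some matrix and cytoskeletal genes were higher with the block. Of 36 genes of extracellular matrix and integrins 5 were higher (Ccn1, Col4a2, Col6a1, Timp3 and Tnc) and 1 lower (Sdc2), against 191 higher and 184 lower of all 5688 genes. Timp3, an inhibitor of matrix proteases, read 169 and 84.4 on the adeno-treated arrays and 603, 345 and 125 on null arrays 1, 2 and 3 (log2 change 1.93 with the block, limma adjusted p = 0.0011; 0.618 without). Of 30 cytoskeletal genes 6 were higher (Actg2, Krt19, Myl9, S100a10, Tubb6 and Vcl) and 1 lower (Tuba4a). Krt19, a biliary keratin, read 533 and 201 against 1602, 564 and 131 (log2 change 1.57, limma adjusted p = 0.00133). Null array 3 lay between the controls for Timp3 and under both for Krt19. Of the 11 genes of both lists higher with the block, 2 to 4 passed when 1 array was left out (2 without adeno-treated array 2). The matrix median was 0.55, 0.16 and -0.46 by null array, next to 0.52, 0.04 and -1.09 for the 12 tested stellate and fibroblast markers, 0 of which passed in either direction in either fit; the part of these cells was not tested.

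Among inflammatory and clotting genes, Ccl2, the monocyte chemoattractant MCP-1, stood out. It read 292 and 356 on the adeno-treated arrays, 504 and 636 on the untreated arrays and 2059, 1561 and 910.5 on the null arrays. All null arrays lay above all 4 normoxic ones. It passed with the block (log2 change 2.49 ± 0.20 SE, limma adjusted p = 0.000212) and not without it (0.0851). Cxcl1, a neutrophil chemokine, was lower with the block on 1 of 2 probe sets (-1.55, limma adjusted p = 0.029). F3, tissue factor, read 161 and 64.8 against 848, 669 and 333 (log2 change 2.69, limma adjusted p = 0.00177 with the block, 0.0872 without). The macrophage antigen gene Cd68 read 105 and 65.9 against 243, 220.1 and 254 and passed with the block (limma adjusted p = 0.00501), the only one of 6 tested macrophage markers to do so; summed macrophage markers were 925, 812 and 678 on the null arrays and 951 and 681 on the adeno-treated arrays. Hmox1, heme oxygenase, read 668 and 1099 against 1389, 2120.4 and 2040.0 (limma adjusted p = 0.00287 with the block).

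Beyond the 6 falls above, the largest non-overlapping falls with the block came from varied genes. H1f2, a linker histone, read 616 and 1447 against 360.0, 255 and 161 (log2 change -1.72, limma adjusted p = 0.0197 with the block, 0.118 without). Hpgd, which inactivates prostaglandins, read 285 and 222 against 121, 92.4 and 88.1 (limma adjusted p = 0.0123 with the block). Apof, an apolipoprotein of the liver, read 819 and 1464 against 372, 519 and 637 (limma adjusted p = 0.00237 with the block), with the null arrays close together and under both controls. The others were Keg1, Tle1 (a corepressor), Gga1, Itpr2 (a calcium channel of the endoplasmic reticulum), Gas2, Ugt2b5 (a glucuronosyltransferase) and the unnamed locus 0610005C13Rik, with log2 changes from -1.94 (Keg1) to -1.32 (Ugt2b5).

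Several core functions had no member that passed in either fit: 28 genes of the cell cycle and DNA replication, 27 of the proteasome and 18 cytosolic ribosomal proteins, with medians of 0.11, -0.16 and -0.04. This shows no call at this number of arrays, not equal levels. Of the 27 proteasome genes, 10 lay wholly lower on the null arrays and 0 wholly higher, against 715 and 793 of all 5688 genes. For the cell cycle list 1 lay wholly lower and 4 wholly higher, and for the ribosomal list 0 and 1. The plot of list medians gives all lists of 5 or more tested genes by null array.

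**Figure D3:**
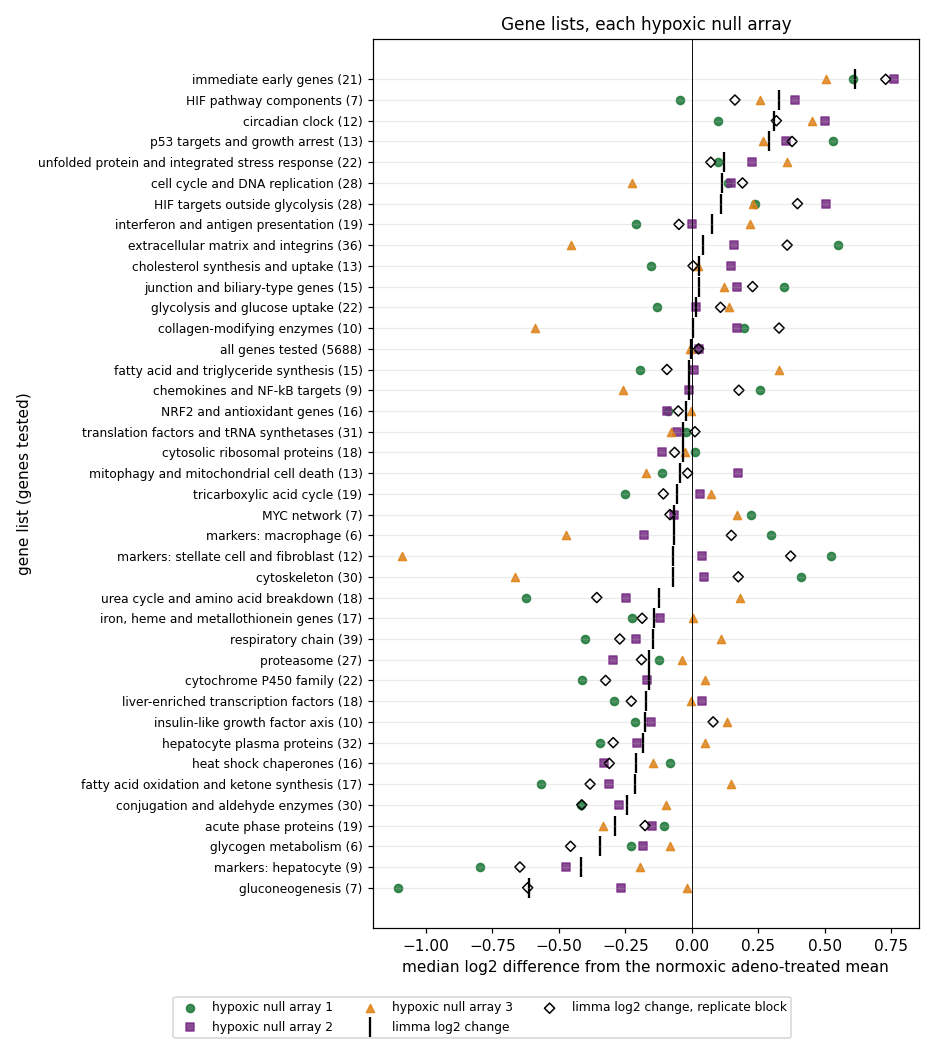
Median log2 difference from the normoxic adeno-treated mean over the tested genes of each list (number in brackets): coloured marks are null arrays 1, 2 and 3, the black bar the limma log2 change and the open diamond the same with the replicate block. The 3 arrays lie together above 0 for immediate early genes and apart for gluconeogenesis, matrix and stellate markers, where array 1 and array 3 are at opposite ends.

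Set beside hypoxic wild type cells, several of the strongest rises had similar estimates in the null cells. Both hypoxic groups are compared with the same 2 adeno-treated arrays, so their changes are given side by side, and the difference was tested as null minus wild type. In wild type cells 24 probe sets were higher (0.322%) and 0 lower by limma, with 333 higher and 258 lower at an unadjusted p under 0.05 (with the block, 111 higher, 1.49%, and 55 lower, 0.738%). The log2 change of Adm was 4.50 in null and 4.72 in wild type cells, that of Atf3 2.96 and 3.0, that of Pgf 2.74 and 2.72, and that of Vegfa 2.49 and 2.61. For these 4 the null minus wild type estimates with the block were -0.22 ± 0.14, -0.04 ± 0.15, 0.01 ± 0.13 and -0.12 ± 0.25 (log2 ± SE), none of which passed; this does not show that they are equal. Slc2a1 changed by 2.56 and 3.24, a difference of -0.68 ± 0.15 that did not pass (limma adjusted p = 0.116). List medians, which were not tested, were 0.11 in null and 0.78 in wild type cells for the HIF targets outside glycolysis. They were 0.02 and 0.31 for glucose uptake and glycolysis, 0.61 and 0.40 for immediate early genes, and -0.003 and -0.03 over all genes.

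The direct test of single probe sets called few differences. Whether null cells were given adeno is unstated, so genotype and any difference in adeno treatment cannot be told apart in this test either. By limma without the block 0 probe sets were higher and 0 lower in null than in wild type cells (126 and 126 at an unadjusted p under 0.05), and with the block 1 was higher (0.0134%) and 9 lower (0.121%). The one higher was Ccl2, which read 354, 275 and 135 on the wild type arrays against the null values above (difference 2.57 ± 0.17, limma adjusted p = 0.000246). Hk2 was lower: the wild type arrays read 479.7, 317 and 393 and the null arrays 179.8, 139 and 130.3 (difference -1.37 ± 0.16, limma adjusted p = 0.0278). Egln1 was lower, at 674, 711 and 724 on the wild type arrays against 248, 281 and 409 (difference -1.19 ± 0.16, limma adjusted p = 0.0341). For Ccl2, Hk2 and Egln1 the arrays of the hypoxic groups did not overlap. Ccl2 passed in all 5 block fits that leave out 1 array. None of the 9 lower probe sets passed without adeno-treated array 1 or 2 or without null array 2 or 3; without null array 1, Hk2, Egln1, F9 and Sdc2 did (limma adjusted p = 0.028, 0.0494, 0.0315 and 0.0343).

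The other 7 lower probe sets were Gys1 (muscle-type glycogen synthase), Pfkl (liver phosphofructokinase), Ak4 (a mitochondrial adenylate kinase), Fam162a (a mitochondrial protein induced by HIF-1alpha), F9 (clotting factor IX), Sdc2 (syndecan) and Eif1b (an initiation factor). Gys1 read 1049.7, 874 and 509 in wild type and 420.4, 415 and 297 in null cells, and Pfkl 1687, 1806 and 1015 and 782, 907 and 710.2. Ak4 read 218, 296 and 239 and 89.3, 134 and 142, and Fam162a 995, 861 and 865 and 438, 446 and 510.1. For all 7 the wild type arrays lay above the null arrays without overlap; a second Ak4 probe set gave a difference of -1.22 that did not pass (limma adjusted p = 0.0553). Limma adjusted p for the 7, with the block, ran from 0.033 (Sdc2) to 0.0484 (Ak4 and Fam162a). Of these 7, F9 and Sdc2 had also fallen against the adeno-treated arrays (-0.67 and -1.08 with the block, limma adjusted p = 0.0368 and 0.00371).

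Nppb (2.50 in null and 1.06 in wild type cells), Bid (1.15 and 0.14) and Plet1 (2.51 and 0.37) had larger estimates in the null cells, with differences that did not pass (limma adjusted p = 0.079, 0.0752 and 0.0752 with the block). The log2 change of Pdk1 was -0.70 and 0.45 (limma adjusted p for the difference = 0.0756). That of Ccng2 was 1.03 and 1.85 (limma adjusted p = 0.0827). The plot of both groups gives these genes with their errors.

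**Figure D4:**
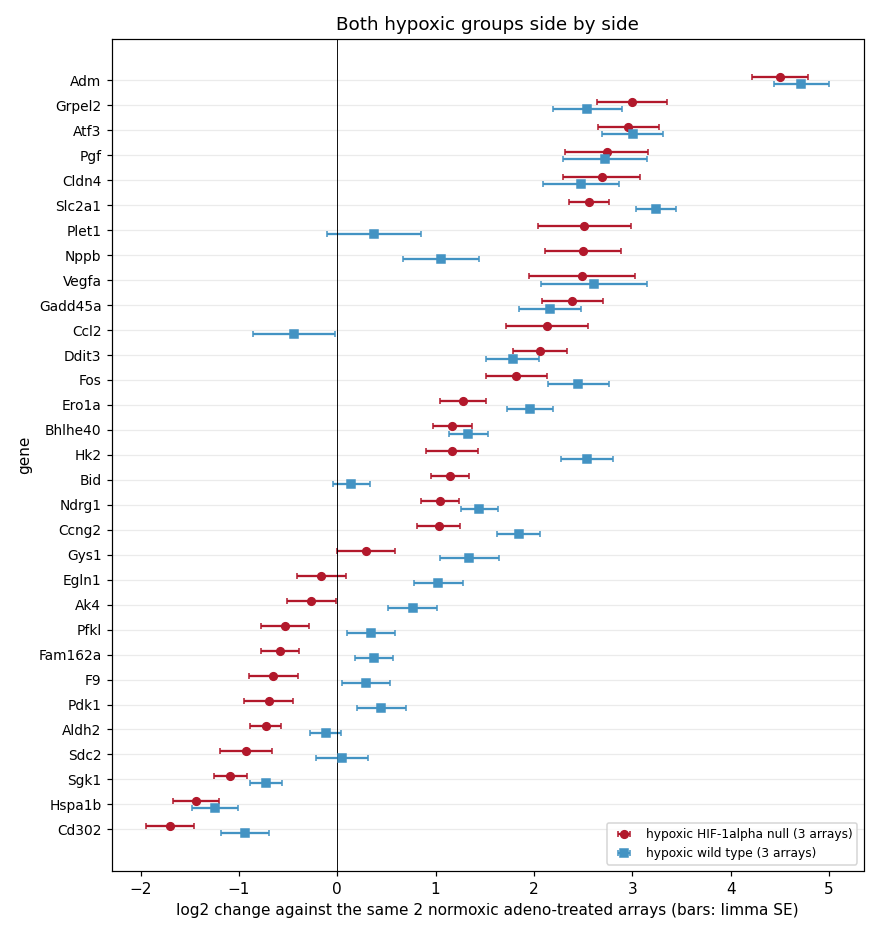
Log2 change against the same 2 normoxic adeno-treated arrays for 31 genes chosen from the text, 1 probe set each, with limma standard errors without the block; red points are the 3 hypoxic null arrays and blue squares the 3 hypoxic wild type arrays. Adm, Atf3, Pgf and Vegfa lie close together in both groups, Hk2 and Egln1 lie further right in wild type, and Ccl2 lies above 2 in null and below 0 in wild type cells.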

How the data were processed

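Hepatocyte RNA was hybridised to oligonucleotide arrays, and the deposited table gives the authors' scaled intensity per probe set on a linear scale. Every array has a mean of 199.9 between its 2nd and 98th percentiles; how the scans became these values is not stated. Arrays were grouped by title. To the values as scaled, 4.7 was added, which is the 10th percentile over the series, before taking log2. The 66 controls were left out, and probe sets with a mean log2 at or above the 40th percentile were tested. Group means of all 10 arrays in 4 groups were fitted with limma 3.58.1 (R 4.3.3, lmFit and eBayes, trend on intensity, residual degrees of freedom 6). Two-sided p-values were Benjamini-Hochberg adjusted over all 7453 probe sets. The replicate block adds the array number from the titles (4 residual degrees of freedom). It was read as a pairing since every same-number pair correlated above 0.1. Some different-number pairs did so too, the highest being untreated array 2 with null array 3 (r = 0.251), so this does not establish a pairing. The number of arrays limits the precision.

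Symbols come from the platform annotation, updated to RefSeq GRCm38.p6: of the non-control probe sets, 10833 have 1 symbol (10817 matched), 396 several and 1193 none; 6724 tested ones name 5688 genes. Probe sets ending in f, r, i, s or g may share transcripts. Named genes are the 15 largest non-overlapping rises and falls of each fit, up to 3 genes of smallest p per list, and a fixed set; other genes called, list members called with the block, and those of the wild type comparison were named after their values were seen. The members and lists were chosen with earlier results of these data known. The code was tested on simulated data with independent noise on each array and no effect of array number. That test cannot show how the block fit behaves where arrays of a number deviate together. Alternatives were another normalization, offset, filter, set of arrays and trend, and leaving out each array.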

Additional observations from a re-analysis of the deposited data

Results flagged for a closer look

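The change against normoxic adeno-treated cells differed between null and wild type cells, by limma with the replicate block, for 10 probe sets. Genotype and any difference in adeno treatment cannot be told apart in these differences. Ccl2 was higher in null cells by 2.57 on the log2 scale. The other 9 were lower in null cells, by -1.37 (Hk2), -1.19 (Egln1), -1.05 (Gys1), -1.03 (Ak4), -0.97 (Sdc2), -0.96 (Fam162a), -0.94 (F9), -0.90 (Eif1b) and -0.87 (Pfkl). None passed without the block (limma adjusted p from 0.31 to 0.623).

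The 18S control probe sets, which are outside the main measurement, had a mean log2 intensity of 12.2 on null array 3, the highest of the 5 arrays compared; the other 4 lay between 7.08 and 10.2. Hypoxic wild type array 3 read 12.3, so the high signal was shared by both hypoxic arrays of number 3. Its part in the results was not tested, and without null array 3 11 probe sets were higher and 0 lower.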

How the results depend on the processing

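Of the probe sets higher and lower in null than adeno-treated cells (26 and 6), quantile normalization gave 28 and 6, no filter 20 and 7, and no intensity trend 22 and 3. The arrays used mattered more: only the 5 arrays gave 11 and 0 (332 and 277 at an unadjusted p under 0.05), no number 3 arrays 16 and 1, and all 4 normoxic arrays 44 and 17. The replicate block gave 220 and 211; with it, no number 3 arrays gave 114 and 114, and, chosen after seeing the data, all 4 normoxic arrays 227 and 273 and quantile normalization 179 and 188. Leaving out 1 array gave 3 to 20 higher and 0 to 3 lower. With the block, leaving out adeno-treated array 1 or 2 gave 84 and 29 or 34 and 16, and leaving out null array 1, 2 or 3 gave 160 and 160, 56 and 40, or 114 and 117. For null against wild type (0 and 0), no number 3 arrays gave 1 and 0 and the block 1 and 9; with the block, no number 3 arrays and all 4 normoxic arrays each gave 1 and 0, quantile normalization 1 and 11, and leaving out 1 array 0 to 12 and 0 to 15 over both fits (the highest without null array 1). The block ended no call of the fit without it. No named probe set that passed without the block changed sign in another setting, and none changed sign in a setting in which it passed. Among the other named probe sets some changed sign, 11 of them with the block against all 4 normoxic arrays. The sign of a gene that passed with the block alone is thus not assured in every setting. A smaller or a 4 times larger offset and the 60th percentile filter kept both counts within 1.5 times. The cause of these changes was not tested, except that settings with fewer arrays have fewer residual degrees of freedom.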

Other observations

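Some functions not described above held 1 to 3 members that passed with the replicate block and not without it. Of all 5688 genes tested, 191 were higher and 184 lower with the block. Among 16 antioxidant genes, Gpx3, the secreted glutathione peroxidase, read 335 and 299 on the adeno-treated arrays and 698, 509.5 and 373 on the null arrays (log2 change 0.90, limma adjusted p = 0.01). Hmox1, described above, was the other higher one. Gclm, a subunit of the enzyme that starts glutathione synthesis, read 770.3 and 638 against 501, 302 and 462 (log2 change -0.80, limma adjusted p = 0.0188). Of 19 interferon and antigen presentation genes the immunity GTPases Igtp and Iigp1 were lower (-1.15 and -0.93, limma adjusted p = 0.0321 and 0.0273).

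In lipid genes Lpin1, a phosphatidate phosphatase, read 758 and 1015 against 209.8, 616 and 845, with null array 1 far under the rest (log2 change -1.22, limma adjusted p = 0.0155). Ebp, a sterol isomerase, read 512 and 634 against 332, 318 and 562 (limma adjusted p = 0.0203). Apcs, the plasma protein serum amyloid P, was the 1 of 19 acute phase genes to pass, at 2607 and 2346 against 1984, 1284 and 897 (limma adjusted p = 0.0377), and unlike the liver lists of the report it was lowest on null array 3. Bcl2l1, which encodes the survival factor BCL-XL, read 872 and 627 against 1200.3, 979 and 804 (limma adjusted p = 0.0426). Eif4a2, an RNA helicase of translation, read 1007 and 738 against 1375, 1823 and 2371 (limma adjusted p = 0.0264), with no overlap between the groups.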
